A study of Mus musculus with 4 samples.

Results

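The 10 genes described here carry glucocorticoid signalling and steroid interconversion: the receptor genes Nr3c1 and Nr3c2, the enzyme genes Hsd11b1, Hsd11b2 and Srd5a1, and Fkbp5, Tsc22d3, Per1, Zbtb16 and Sgk1, which glucocorticoids are known to induce. They were taken by symbol from 32285 listed genes, and all 10 were found. Their unique molecular identifiers (UMIs, each standing for 1 captured mRNA molecule) were summed for each mouse and each cell class in whole prostate tumours of 4 castrated mice, with 2 mice per genotype. Among the alleles common to both groups are PB-Cre, SpopF133V and the mTmG reporter, and PCSp mice differ from PSp mice by carrying Chd1L/L in addition. PB is the promoter of the probasin gene, which drives Cre in prostate epithelium, so floxed alleles such as Chd1L/L are expected to recombine there and not in stromal or immune cells. Castration was done at 9 months of age and collection followed 1 month after it in each of the 4 animals, so no intact animal enters any comparison and castration is common to both groups. The study asked what the chromatin remodeller Chd1 does in Spop-mutated tumours.

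Corticosterone, the main glucocorticoid of the mouse, binds the glucocorticoid receptor encoded by Nr3c1 and, with high affinity, the mineralocorticoid receptor encoded by Nr3c2. HSD11B1 makes active corticosterone from its inert keto form inside the cell, and HSD11B2 runs the opposite reaction, which shields the mineralocorticoid receptor in salt-transporting epithelia. SRD5A1 reduces testosterone to dihydrotestosterone and also reduces other steroids. In prostate cancer under androgen deprivation the glucocorticoid receptor is known to be able to drive part of the androgen-responsive programme, which makes local supply of its ligand a matter of interest in castrated tumours.

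Barcodes numbered 6539 and 7266 for PSp and 9656 and 9600 for PCSp, with total counts from 66874620 to 90839725 UMIs and median counts from 2289 (PCSp mouse 2) to 3757 UMIs per barcode. Before filtering, 112 of 32948 different barcodes occurred in more than 1 library. Any 2 libraries shared 11 to 27 barcodes, where 7.0 to 13.6 would be expected at random. The number was above the expected one in every pair, and the cause was not tested. After filtering, 26431 cells remained. Clusters took the names of 9 classes from their markers alone: epithelial-like (12492 cells), neutrophil-like (5902), fibroblast-like (3229), macrophage- and monocyte-like (2152), T- and NK-like (1106), endothelial-like (787), B- and plasma-like (215), smooth muscle- and pericyte-like (210) and glial-like (86). The ending "-like" is left out from here on. A cluster of 252 cells stayed unnamed. In epithelial cells the Chd1 level was 91.3 and 77.9 UMIs per 1000000 UMIs (CPM) in PSp tumours against 59.7 and 56.2 in PCSp tumours, and it did not reach 0. The labels do not say whether the 3′ end counted here lies in the deleted part of Chd1. The androgen-dependent luminal gene Pbsn was between 0.0691 and 0.377 CPM in epithelial cells of the 4 mice.

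Several of the 10 genes were tied to 1 compartment of the tumour in all 4 mice. Levels are in CPM, the UMIs of a gene per 1000000 UMIs of that class in that mouse, and the 4 values of a gene are always given in the order PSp mouse 1, PSp mouse 2, PCSp mouse 1 and PCSp mouse 2. Epithelial cells held 79.1% of the UMIs of all genes, and 99.0% of those of Hsd11b2 and 98.6% of those of Srd5a1, whose levels were also highest there. They held 92.3% of the Sgk1 and 94.0% of the Nr3c2 UMIs too, but the levels of these 2 genes overlapped those of endothelial and glial cells. Fibroblasts held 6.72% of all UMIs and 84.9% of the Hsd11b1 UMIs. Nr3c1, Tsc22d3, Fkbp5 and Zbtb16 had lower levels in CPM in epithelial cells than in fibroblasts, endothelial cells or T and NK cells of every mouse. These are descriptions of levels across cell classes, and the classes were not tested against each other.

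**Figure D1:**
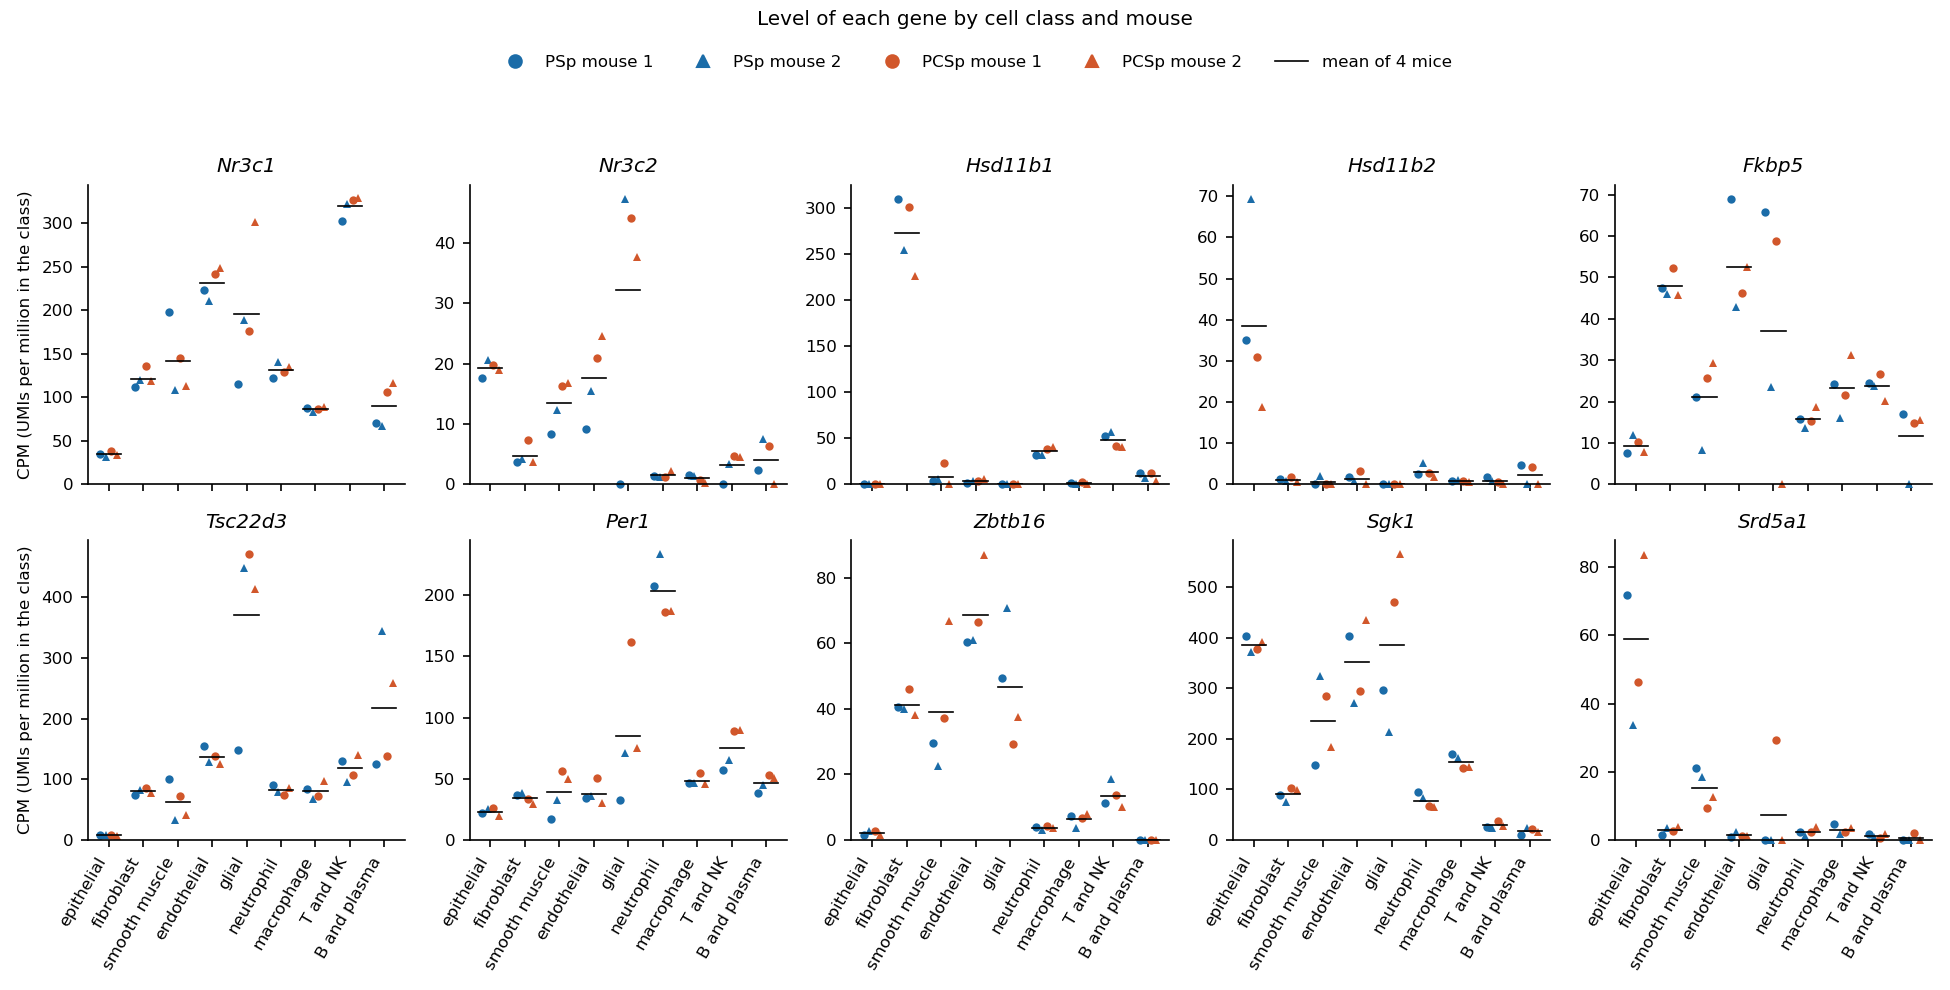
Level of each of the 10 genes (y axis, CPM of the class) in 9 cell classes (x axis), with 1 point per mouse and a line at the mean of 4 mice. Hsd11b1 stands high in fibroblasts (226 to 309) and Hsd11b2 and Srd5a1 in epithelial cells, while Nr3c1 is lowest there (31.8 to 37.9). Glial points rest on 12 to 30 cells per mouse.

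Nr3c1, the glucocorticoid receptor gene, was highest in T and NK cells, at 303, 322, 326 and 329. Endothelial cells followed at 223, 211, 242 and 248. Epithelial cells were lowest of all 9 classes at 35.4, 31.8, 37.9 and 34.0, and T and NK cells stood 9.20-fold and endothelial cells 6.64-fold above them in the mean of 4 mice. The classes between were glial, smooth muscle, neutrophil, fibroblast, B and plasma, and macrophage cells, with means from 195 down to 86.4. Each of these overlapped its neighbour in the range over mice. The gaps that no mouse crossed lay between T and NK and endothelial cells, and between macrophages (83.1 to 89.0) and epithelial cells. Although the level was lowest there, epithelial cells held 47.9% of all 16071 Nr3c1 UMIs, since most UMIs of the libraries came from them.

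Within the epithelium Nr3c1 differed between subclasses. Basal cells had 59.2, 62.7, 70.5 and 55.4, luminal cells 30.4, 23.4, 34.0 and 22.2, and luminal progenitor cells 26.2, 25.2, 24.2 and 21.8. The Krt14-led basal sub-cluster (number 0) reached 83.0, 77.5, 90.7 and 85.4, and the Krt5- and Krt16-led one (number 3) 37.2, 42.1, 33.6 and 29.6. All 4 mice thus had higher Nr3c1 in basal than in luminal or luminal progenitor cells, and the basal sub-clusters differed among themselves. Among T and NK cells, the cluster led by Cd3g, Icos and Il7r had 391, 432, 398 and 398, and the cytotoxic cluster led by Ccl5 and Nkg7 had 266, 266, 295 and 302, with no overlap.

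Nr3c2, the mineralocorticoid receptor gene, had a different distribution. Epithelial cells had 17.5, 20.6, 19.8 and 18.9, endothelial cells 9.24, 15.5, 20.9 and 24.6, and smooth muscle and pericyte cells 8.42, 12.3, 16.4 and 16.7. The endothelial values overlapped both others, and fibroblasts (3.71, 4.21, 7.28 and 3.78) lay under all of them. Macrophages (0.277 to 1.51) and neutrophils (1.15 to 2.16) were near the level of 3 UMIs. The glial values of 0, 47.2, 44.1 and 37.6 rest on 6 UMIs in all, so the glial rank is not readable. In the epithelium basal cells, the highest for Nr3c1, were lowest for Nr3c2: luminal cells had 40.3, 31.1, 29.1 and 28.0, luminal progenitor cells 27.7, 24.3, 27.5 and 25.2, and basal cells 8.12, 4.42, 10.1 and 9.48. The highest Nr3c2 was in the unnamed sub-cluster 9, led by the noncoding RNA Gm26917, at 68.8, 106, 82.1 and 116. A basal sub-cluster also led by Gm26917 (number 11) had 42.3, 31.4, 47.1 and 73.1, and both sub-clusters had low depth, with medians of 3237 and 1797 UMIs per cell. Among endothelial cells, the cluster of 162 cells led by Ccl21a and Lyve1, genes of lymphatic vessels, had 56.1, 49.6, 64.5 and 102, and the Fabp4-led cluster had 7.79, 10.9, 7.45 and 6.86.

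Hsd11b1, whose product regenerates active corticosterone (chromosome 1, 193221634 to 193264075 on the minus strand of GRCm38), was a fibroblast gene at 309, 254, 300 and 226. T and NK cells had 52.5, 56.7, 41.5 and 41.0, and neutrophils had 32.4, 31.4, 38.7 and 41.0. Both lay far below the fibroblasts and overlapped each other. Epithelial cells had 0.551, 0.672, 0.573 and 0.668, which is 442-fold under the fibroblasts in the mean of 4 mice. That is less than RNA carried over from fibroblasts could leave: estimated from fibroblast marker genes seen in epithelial cells, such RNA would give 2.77 to 7.32. The T and NK and neutrophil levels were above the same estimate (at most 1.91 and 2.64) in 4 of 4 mice. In glial cells Hsd11b1 had no UMI, which allows a level of up to 44.1 to 113 per mouse.

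Fibroblast clusters differed in Hsd11b1. The Dcn- and Apod-led cluster had 373, 313, 331 and 213 and the Col1a1- and Col12a1-led cluster 273, 297, 363 and 270, whereas the cluster led by Dcn, Matn2 and Inmt had 85.7, 113, 119 and 141. The last lay under both others in every mouse. H6pd, whose product supplies the cofactor HSD11B1 needs for its reducing direction, was also highest in fibroblasts, at 66.9, 58.7, 60.6 and 63.7, against 25.1, 32.6, 28.3 and 24.4 in epithelial cells. Among neutrophils, the Ccl3-led cluster had 19.4, 10.0, 23.4 and 24.7 and the S100a9-led cluster 37.7, 44.8, 41.2 and 45.8.

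Hsd11b2, the gene of the inactivating enzyme (chromosome 8, 105518755 to 105523988 on the plus strand of GRCm38), was epithelial, at 35.1, 69.3, 31.0 and 18.9. Neutrophils came next at 2.58, 5.19, 2.83 and 1.89, a little above the 1.40 to 4.04 that epithelial RNA could leave, mouse by mouse. No other named class exceeded 4.83 in any mouse. The enzymes that make and remove active glucocorticoid were thus transcribed in different compartments of these tumours: 84.9% of Hsd11b1 UMIs were in fibroblasts and 99.0% of Hsd11b2 UMIs in epithelial cells.

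Among named epithelial cells Hsd11b2 was high in luminal and luminal progenitor cells and low in basal cells. Luminal cells had 92.2, 126, 102 and 71.7, luminal progenitor cells 74.5, 88.8, 45.1 and 27.7, and basal cells 4.46, 2.39, 3.90 and 3.43. Every luminal value lay above every basal value. Luminal progenitor cells held 23.0% and luminal cells 20.8% of the 8954 epithelial Hsd11b2 UMIs, and much of the rest lay in the unnamed sub-clusters 6 (16.7%), 19 (14.1%), 5 (8.61%) and 16 (6.25%). By far the highest level was in sub-cluster 19, a group of 44 cells led by Tff3, Klk1, Sval1 and Fcgbp, at 1436, 985, 1083 and 590. It took no class name, and Hsd11b2 is itself among its 10 leading genes, although none of the 10 genes described here was used for clustering. A Hsd11b2 UMI was seen in 38 of the 44 cells (86.4%, exact 95% confidence interval 72.6% to 94.8%, median 13600 UMIs per cell). Other epithelial cells had one in 15.2% (14.6% to 15.9%, median 10100 UMIs), and macrophages, which should lack the gene, in 10 of 2152 cells (0.465%, 0.223% to 0.853%, median 3026 UMIs). Intervals here cover counting error only. The 9, 23, 4 and 8 cells of sub-cluster 19 held 21.8%, 15.1%, 2.69% and 17.4% of the epithelial Hsd11b2 UMIs of their mouse. A second small sub-cluster, number 16, led by the kallikrein genes Klk1b16 and Klk1b9, had 304, 170, 93.0 and 106 from 3 to 61 cells per mouse.

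**Figure D2:**
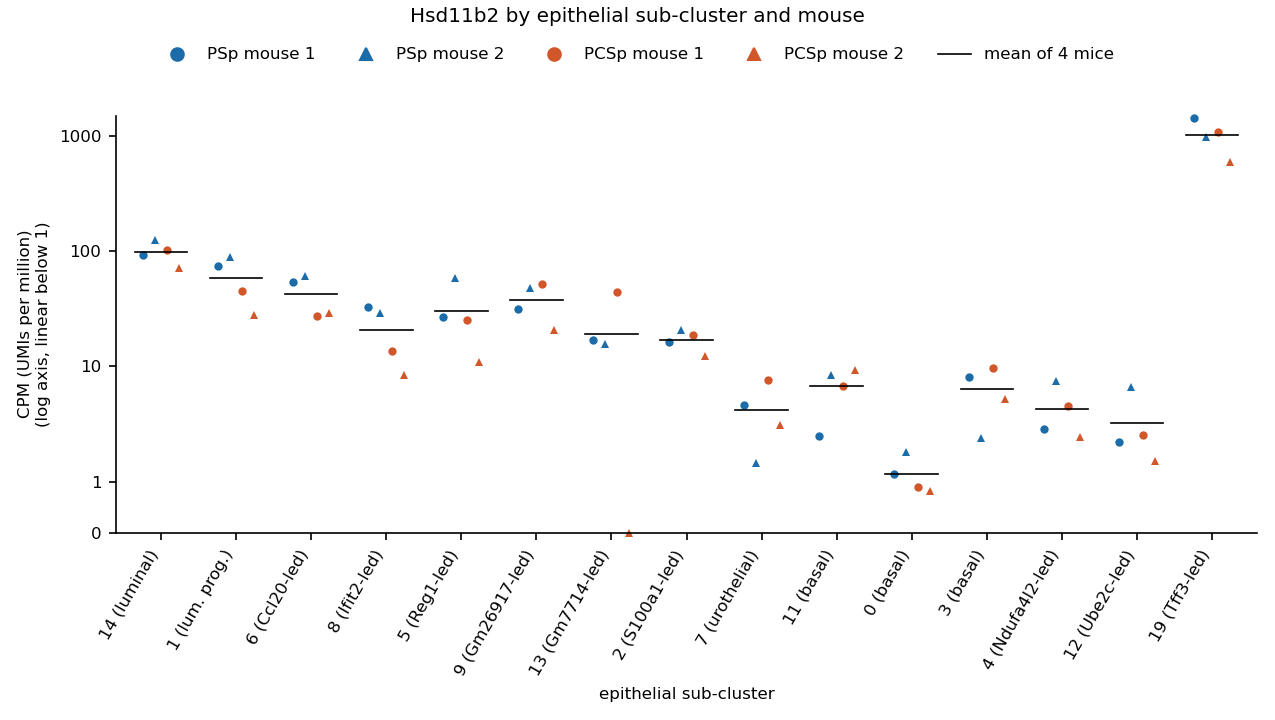
Hsd11b2 (y axis, CPM on a log axis that is linear under 1) in 15 epithelial sub-clusters (x axis, number and name or leading gene), with 1 point per mouse and a line at the mean of 4 mice. Sub-cluster 19 lies between 590 and 1436. In sub-clusters 1, 5, 6 and 8 both PCSp points lie under both PSp points. The groups did not overlap for 36.7% to 42.8% of all genes tested in these sub-clusters (16.2% to 28.5% with PCSp lower).

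Srd5a1, the steroid 5-alpha-reductase gene, was epithelial like Hsd11b2, at 71.9, 33.8, 46.4 and 83.7. Smooth muscle and pericyte cells followed at 21.0, 18.5, 9.35 and 12.5, below every epithelial value. In neutrophils and in T and NK cells the gene stood at or under the level that epithelial RNA could leave in 4 of 4 mice. Within the epithelium its order was the reverse of that of Hsd11b2: basal cells had 80.5, 48.3, 56.8 and 102, luminal progenitor cells 37.7, 24.8, 44.7 and 69.2, and luminal cells 4.97, 6.93, 7.14 and 15.1. The highest value was in the Ndufa4l2-led sub-cluster 4, which also had keratin genes Krt5 and Krt16 among its leading genes, at 152, 99.2, 140 and 152. The related gene Srd5a2, the main form of the normal prostate, stayed between 0.165 and 0.528 in epithelial cells and between 0.841 and 5.90 in fibroblasts.

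The remaining 5 genes are read as targets of the activated receptor. Starts of genes in RefSeq (build GRCm38.p6, 250 bases before to 50 after a start) were at hand for 7 of the 10 genes, in 15 windows; Nr3c1, Hsd11b2 and Zbtb16 had none. The receptor binds as a pair to a palindrome, searched here as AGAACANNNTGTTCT on both strands, and to single copies of its right arm, TGTTCT, which the palindrome contains. The full palindrome was in 3 of 32851 windows of all genes (0.00913%), and 1 of these was a Sgk1 window, 189 bases before the start. The arm alone was in 19.0% of windows. The E-box CACGTG, which the circadian clock proteins bind, was in 7.15%, and was found in 1 window each of Per1, Fkbp5 and Sgk1. The cAMP response element TGACGTCA, in 1.79% of windows, was in none of the 15. The stretches shown are the palindrome of Sgk1 (chr10:21993661-21993755, plus strand), the arm of Tsc22d3 (chrX:140600662-140600747, minus strand, 185 bases before the start), and the E-boxes of Per1 (chr11:69098743-69098828, plus strand, 166 bases) and Fkbp5 (chr17:28486273-28486358, minus strand, 169 bases), with the motif in capitals. None overlaps an annotated exon. A match is only a match of letters, and no binding was measured.
Sgk1: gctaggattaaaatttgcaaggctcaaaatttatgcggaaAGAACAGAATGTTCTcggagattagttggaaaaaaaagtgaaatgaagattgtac
Tsc22d3: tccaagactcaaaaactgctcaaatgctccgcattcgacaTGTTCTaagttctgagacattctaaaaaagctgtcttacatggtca
Per1: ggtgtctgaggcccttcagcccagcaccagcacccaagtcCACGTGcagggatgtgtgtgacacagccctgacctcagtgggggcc
Fkbp5: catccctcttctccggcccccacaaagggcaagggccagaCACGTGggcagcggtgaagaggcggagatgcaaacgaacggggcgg

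Sgk1 encodes a kinase that raises epithelial sodium uptake and survival signalling, and epithelial cells were among its highest classes. They had 403, 372, 377 and 392. Endothelial cells (404, 271, 294 and 436) and glial cells (296, 212, 471 and 565) overlapped them, and T and NK cells (24.5, 23.7, 37.8 and 28.2) lay far under. In the epithelium the Krt14-led basal sub-cluster had 740, 638, 808 and 731 and the Reg1-led sub-cluster 5 had 181, 149, 106 and 142. Luminal progenitor cells stood between these at 426, 421, 347 and 376. Neuroendocrine cells had 73.7, 46.8, 143 and 65.2, from 6 to 22 cells per mouse. In macrophages Sgk1 split the clusters: the cluster led by C1qa and C1qc with a median of 10376 UMIs had 228, 218, 214 and 242, and the Retnla-led cluster had 109, 67.0, 74.5 and 59.0.

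Tsc22d3, which encodes the anti-inflammatory protein GILZ, was lowest in the epithelium. Epithelial cells had 8.52, 7.37, 8.25 and 6.64, above the 3.62 to 8.20 that other cells' RNA could leave in 3 of 4 mice. Endothelial cells had 155, 129, 138 and 125, T and NK cells 129, 94.8, 108 and 139, neutrophils 90.2, 78.1, 74.2 and 84.8, and fibroblasts 74.5, 82.1, 85.1 and 77.8. The fibroblasts thus stood 10.4-fold and the endothelial cells 17.8-fold above the epithelium. The fibroblast cluster led by Dcn, Matn2 and Inmt, which had the least Hsd11b1, had the most Tsc22d3, at 156, 114, 143 and 165 against 62.3, 69.9, 77.0 and 64.8 in the Dcn- and Apod-led cluster. In neutrophils the S100a9-led cluster had 122, 120, 106 and 110 and the Ccl3-led cluster 62.6, 59.0, 40.9 and 29.4.

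Fkbp5, whose protein lowers the receptor's affinity for its ligand and so closes a feedback loop, was highest in endothelial cells (68.9, 42.8, 46.2 and 52.5) and fibroblasts (47.5, 46.1, 52.2 and 45.8), which overlapped. Epithelial cells had the lowest mean of the 9 classes, with 7.47, 11.9, 10.3 and 7.84, but overlapped B and plasma cells (16.9, 0, 14.9 and 15.5) and smooth muscle and pericyte cells (21.0, 8.21, 25.7 and 29.2). Luminal cells, at 15.5, 15.5, 13.9 and 12.9, were above the epithelial mean. Fibroblasts of the Dcn- and Apod-led cluster had 55.6, 59.5, 61.6 and 52.7 and those of the Matn2-expressing cluster 24.5, 20.7, 24.4 and 33.5, an order opposite to that of Tsc22d3.

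Zbtb16 encodes the transcription factor PLZF, which marks innate-like T cells and is induced by glucocorticoids in stroma. Endothelial cells had 60.5, 61.2, 66.4 and 87.1, fibroblasts 40.6, 39.9, 46.0 and 38.3, and epithelial cells 1.34, 2.73, 2.82 and 1.59. No UMI was found in B and plasma cells, which allows up to 6.37 to 22.4 per mouse. Among fibroblasts the Col1a1- and Col12a1-led cluster had 0, 4.68, 3.55 and 0.576, far under the Dcn- and Apod-led cluster (44.0, 41.6, 56.1 and 54.7). Among T and NK cells the cluster led by Cd3g, Icos and Il7r had 32.6, 47.7, 38.3 and 29.9 and the cytotoxic cluster 2.48, 3.83, 3.01 and 2.51. So a class mean of Zbtb16 hides cell groups near 0 in both.

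Per1, a core clock gene that glucocorticoids also induce, was highest in neutrophils at 208, 234, 186 and 187. T and NK cells had 56.8, 65.2, 88.7 and 90.1 and epithelial cells 21.7, 25.2, 26.1 and 19.6. Neutrophils stood 8.80-fold above the epithelium and held 26.9% of all Per1 UMIs, while epithelial cells, at the lowest mean level, held 52.7%. The S100a9-led neutrophil cluster had 323, 365, 257 and 228, above the Acod1-led (151, 187, 144 and 152) and the Ccl3-led cluster (129, 128, 128 and 106) in every mouse. Luminal cells had 35.3, 36.8, 40.8 and 21.5, and the Gm26917-led sub-cluster 9 had 40.4, 46.2, 44.4 and 43.4.

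**Figure D3:**
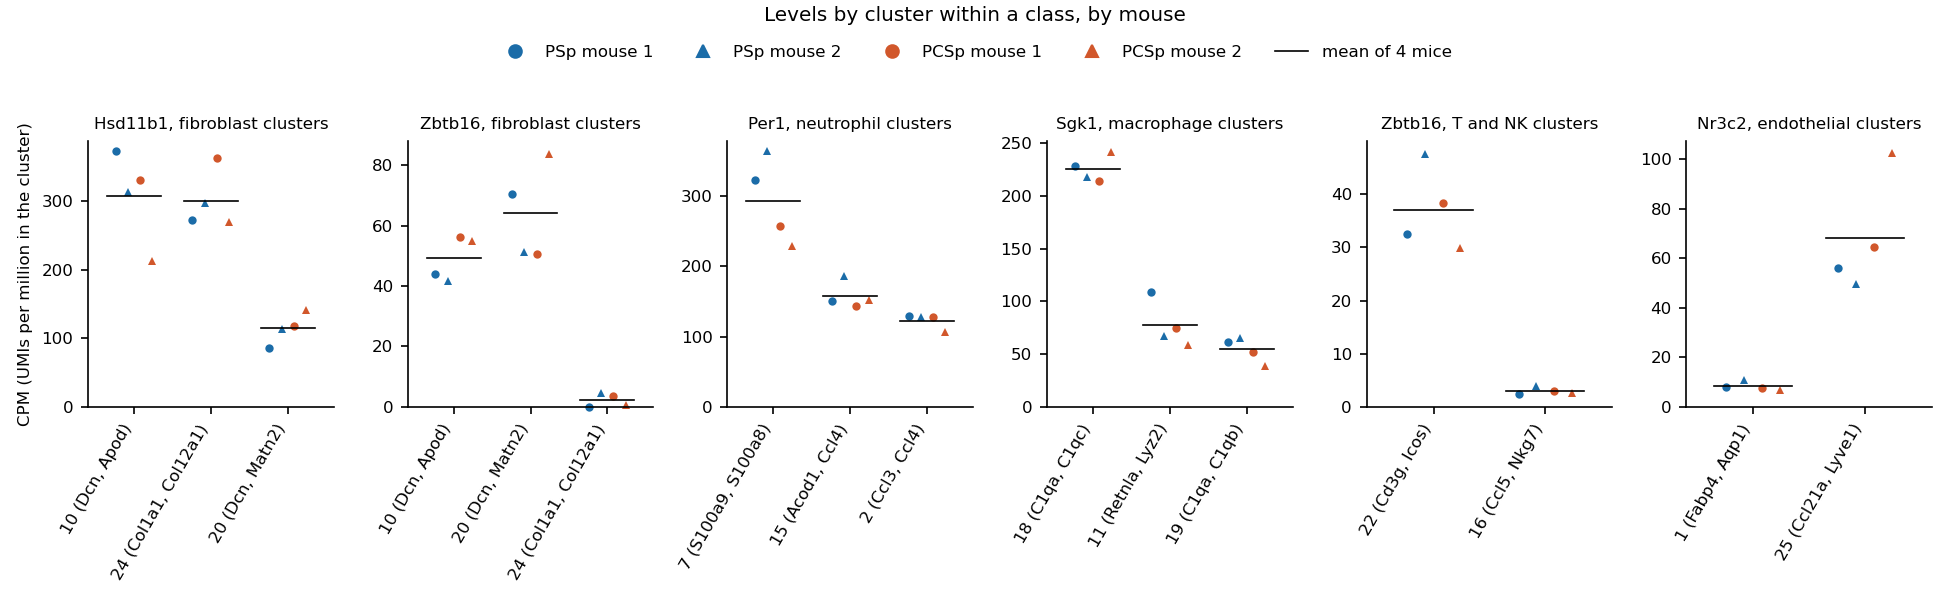
Levels (y axis, CPM) of 5 of the genes by cluster within a class (x axis, cluster number and leading genes), with 1 point per mouse and a line at the mean of 4 mice. Zbtb16 falls to between 0 and 4.68 in the Col1a1-led fibroblasts, and Nr3c2 lies between 49.6 and 102 in the Ccl21a-led endothelial cells.

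Likeness between genes was described by Pearson's r of log2 of the level plus 1 over 24 points, the 6 classes with at least 50 cells in every mouse in each of 4 mice. The points share library, depth and class, so r mostly restates the class pattern, and no p is given. Among the 10 genes, Fkbp5 and Zbtb16 were most alike (r = 0.95), followed by Nr3c1 and Tsc22d3 (0.88) and Hsd11b2 and Srd5a1 (0.85). Tsc22d3 and Srd5a1 were most opposed (-0.95). Hsd11b1 against Hsd11b2 gave -0.43, and Nr3c1 against Nr3c2 gave -0.24. Out of 11461 genes, those most like Nr3c1 were Gm43813, A630072M18Rik and Stat5b (0.94 to 0.95), and those most like Nr3c2 were Bend7, Arhgef5 and Slco2a1 (0.92 to 0.94). For Hsd11b1 they were Ahi1, Pdlim2 and E230001N04Rik (0.87 to 0.91), for Hsd11b2 Cyp2f2, Wfdc2 and Gsdmc2 (each 0.96), and for Srd5a1 Fam83b, Lypd3 and Fgfbp1 (each 0.96). Sgk1 was closest to F11r, Fnbp1l and Cmtm8 (0.94 to 0.96), and Per1 to Plgrkt, Cd274 and Cebpz (0.95 to 0.97). Tsc22d3 was closest to Fgl2, Hip1 and Arhgap31 (0.93 to 0.95), Zbtb16 to Gnb4, Mest and Calcrl (0.95 to 0.96), and Fkbp5, after Zbtb16, to Cd47 and Calcrl (both 0.94).

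**Figure D4:**
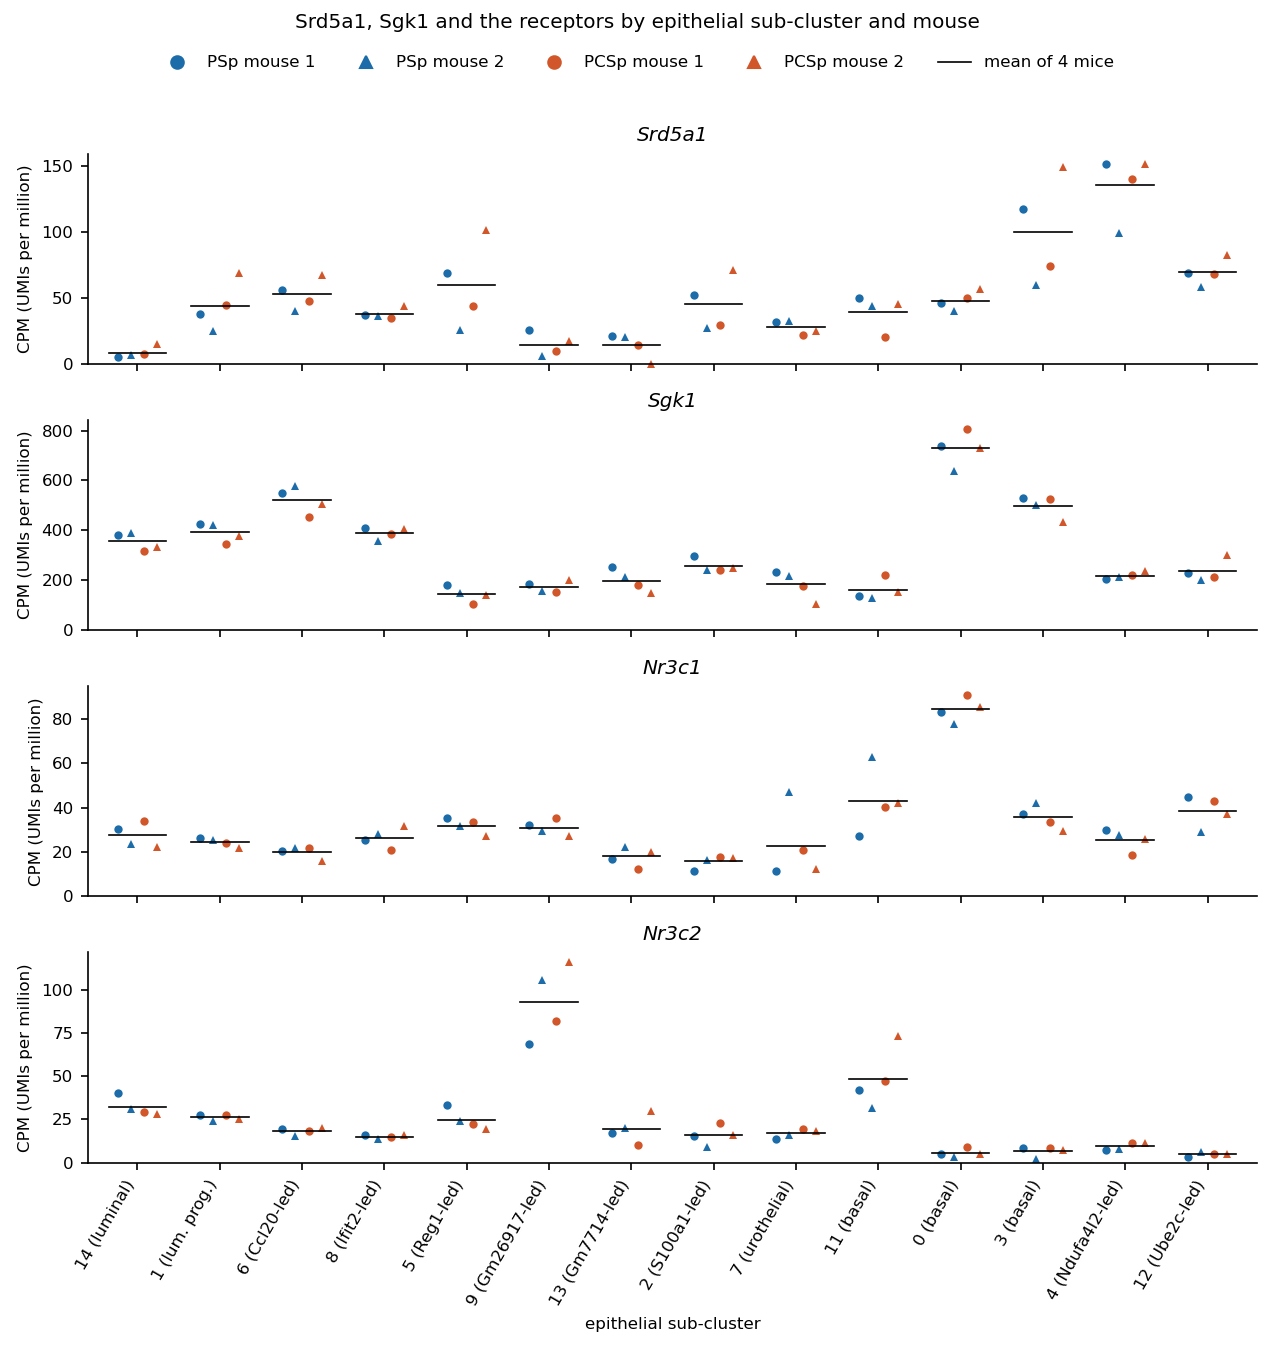
Levels (y axis, CPM) of Srd5a1, Sgk1, Nr3c1 and Nr3c2 in 14 epithelial sub-clusters (x axis), with 1 point per mouse and a line at the mean of 4 mice. Sgk1 and Nr3c1 peak in the basal sub-cluster 0 (638 to 808 and 77.5 to 90.7), Nr3c2 in sub-cluster 9 (68.8 to 116) and Srd5a1 in sub-cluster 4 (99.2 to 152).

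The comparison of PCSp with PSp mice asked whether loss of Chd1 goes with a different level of these genes. In whole classes no difference passed the threshold of an adjusted p of 0.05 (edgeR quasi-likelihood F-test, Benjamini-Hochberg adjustment over all genes tested in the class, two-sided). The 10 genes gave 47 tests in 6 classes: all 10 passed the filter on low counts in epithelial cells, 9 in fibroblasts, and 7 each in endothelial cells, macrophages, neutrophils and T and NK cells. Of these 47, 0 were called by edgeR, 6 had an unadjusted p under 0.05, and DESeq2 called 0 with 1 under 0.05. The share of all genes with an unadjusted p under 0.05 was 7.69% in epithelial cells, 3.81% in fibroblasts, 6.31% in endothelial cells, 6.03% in macrophages, 9.0% in neutrophils and 8.49% in T and NK cells. Among all genes tested, edgeR called 0.0% in epithelial cells, 0.0% in fibroblasts, 0.0435% in endothelial cells, 0.0698% in macrophages, 0.0887% in neutrophils and 0.512% in T and NK cells. The log2 fold change was above 0 in 28 of the 47 and below 0 in 19. With 2 mice per genotype, a p above the threshold does not show that a gene was alike in both.

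In epithelial cells the estimates were small for most of the genes. On the log2 scale, with standard errors, PCSp minus PSp was 0.08 ± 0.09 for Nr3c1 and 0.00 ± 0.12 for Nr3c2, and -0.03 ± 0.08 for Sgk1, each with 2 mice per group. The adjusted p values of edgeR for these 3 genes were 0.851, 0.997 and 0.943. Per1 (-0.06 ± 0.17, adjusted p = 0.950), Tsc22d3 (-0.11 ± 0.15, 0.875) and Fkbp5 (-0.12 ± 0.27, 0.937) were also within about 1 standard error of 0. The genes of very low epithelial level had wide errors: Hsd11b1 gave -0.01 ± 0.30 (0.997) and Zbtb16 0.09 ± 0.45 (0.975). Srd5a1 gave 0.29 ± 0.43 (0.894), and its PSp values of 71.9 and 33.8 enclosed the PCSp value of 46.4. Hsd11b2 had the largest estimate of the 10, -1.09 ± 0.40 (unadjusted p = 0.0398, adjusted p = 0.635). PSp mouse 2 had the highest value, 69.3, and without this mouse the difference was -0.49. Making the number of cells per sub-cluster equal across mice gave -0.90 with an adjusted p of 0.0944.

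Within luminal progenitor cells Hsd11b2 fell in PCSp tumours. These cells, 78, 375, 214 and 199 in number, had 74.5 and 88.8 in PSp tumours and 45.1 and 27.7 in PCSp tumours, and the groups did not overlap, which also held for 42.8% of all genes tested there (16.6% with PCSp lower). The log2 fold change was -1.20 ± 0.19 (adjusted p = 0.0209, edgeR, n = 2 mice per group). It was the only 1 of 18 tests of the 10 genes in basal and luminal progenitor cells that passed (3 had an unadjusted p under 0.05, against 10.6% of all genes in luminal progenitor and 6.62% in basal cells, and DESeq2 also called 1). Of all genes tested in luminal progenitor cells, edgeR called 0.827%, or 0.637% as lower in PCSp tumours, and 0.00749% in basal cells. DESeq2 gave Hsd11b2 an adjusted p of 1.89e-05 there, and with each mouse left out in turn the difference stayed between -0.93 and -1.60 and was called each time. The call was lost under 4 other ways of choosing the cells, with the estimate between -0.95 and -1.06. These were a stricter cell filter (adjusted p = 0.0509), clustering with the listed genes kept (0.0876), no doublets left out (0.182) and finer clusters (0.250). In basal cells the values of 4.46, 2.39, 3.90 and 3.43 gave 0.04 ± 0.33. The difference between the subclasses, luminal progenitor minus basal, was -1.23 ± 0.34 with an adjusted p of 0.424 (0.0441% of all genes called), so it was not shown. Without PCSp mouse 1 the difference was -1.51 and without PSp mouse 1 it was -1.94, in fits that leave 1 mouse in an arm. These are 2 of 4 such fits, and in the fit of all mice the difference was not shown.

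The summed level of luminal progenitor markers was lower in PCSp tumours in the same cells. Over 10 of 10 listed markers it was 21495 and 22658 in PSp tumours and 15861 and 18482 in PCSp tumours, with no marker at 0. Abundant markers weigh most in such a sum, and the sum was not tested. Of all single genes tested in these cells, 16.6% also had both PCSp values under both PSp values. The part of the markers in the Hsd11b2 result was not tested. Dissociation stress genes, 13415 and 14985 against 14783 and 12422, overlapped. In the whole epithelium the median depth was 11024 and 14025 UMIs per cell in PSp tumours and 9789 and 7865 in PCSp tumours. The part of depth in the Hsd11b2 result was not tested.

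Fitting each epithelial sub-cluster by number, a step added after these values were seen, called Hsd11b2 lower in PCSp tumours in 3 of 11 sub-clusters. The sub-clusters were not tested against each other. Of 83 tests of the 10 genes, 12 had an unadjusted p under 0.05, which 5.03% to 10.6% of all genes had in the 11 sub-clusters, and 3 were called by edgeR, each of them Hsd11b2 and lower in PCSp tumours. Of all genes tested, edgeR called 0.168% in sub-cluster 0, 0.827% in 1, 0.431% in 2, 0.0% in 3 and 12, 0.63% in 4, 0.251% in 5, 0.0813% in 6, 0.143% in 8, 0.0502% in 9 and 0.032% in 11. Besides the luminal progenitor cells (sub-cluster 1), these were the unnamed sub-clusters 6 and 8. Luminal progenitor was the nearest class of both, with 5 and 3 of its 10 markers met, and also of sub-cluster 5 (2 of 10), which was not called, and of sub-cluster 16 (4 of 10), which had too few cells for a fit. Sub-cluster 6, led by Ccl20, Hp and the lactoferrin gene Ltf, had 54.3 and 60.4 in PSp tumours and 27.3 and 29.0 in PCSp tumours, a difference of -1.04 ± 0.11 (adjusted p = 0.0216, with 0.0407% of all genes called lower). Sub-cluster 8, led by the interferon-induced genes Ifit2 and Rsad2, had 32.4 and 29.1 against 13.6 and 8.42, a difference of -1.46 ± 0.25 (adjusted p = 0.0269, with 0.0668% of all genes called lower). Leaving out PCSp mouse 1 ended the call in sub-cluster 6 (adjusted p = 0.100). Leaving out PCSp mouse 2 (0.0912) or using DESeq2 (0.143) ended that in sub-cluster 8. Luminal progenitor markers summed to 15384 and 16544 against 15620 and 14382 in sub-cluster 6, where the groups overlapped, and to 23708 and 24772 against 22536 and 22097 in sub-cluster 8, where PCSp mice were lower.

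Other sub-clusters did not share the call. The Reg1-led sub-cluster 5 had 26.8, 58.9, 25.5 and 11.0 (-1.16 ± 0.43, adjusted p = 0.450, edgeR). Both PCSp values there lay under both PSp values, which held for 28.5% of all genes tested in that sub-cluster. The estimate was within the range of the called sub-clusters, with a wider standard error. The Gm26917-led sub-cluster 9 had 31.2, 48.2, 51.6 and 20.8 (-0.09 ± 0.31). Luminal cells and sub-cluster 19 had too few cells in some mice for a fit. Their values of 92.2, 126, 102 and 71.7 and of 1436, 985, 1083 and 590 overlapped between genotypes. Sub-cluster 16 was also too small for a fit, with 3 and 54 cells in PSp tumours and 61 and 17 in PCSp tumours. Both its PCSp values lay under both PSp values, and the share of all genes for which this held there was not computed.

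Srd5a1 leaned the other way in luminal progenitor cells, at 37.7 and 24.8 in PSp tumours and 44.7 and 69.2 in PCSp tumours. The estimate of 0.89 ± 0.23 did not pass (adjusted p = 0.180, edgeR). Leaving out either PSp mouse 1 (1.12, adjusted p = 0.0415) or PCSp mouse 1 (1.19, 2.49e-05) made it pass. Sgk1 in the same cells gave -0.27 ± 0.10 (adjusted p = 0.341) from 426, 421, 347 and 376.

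**Figure D5:**
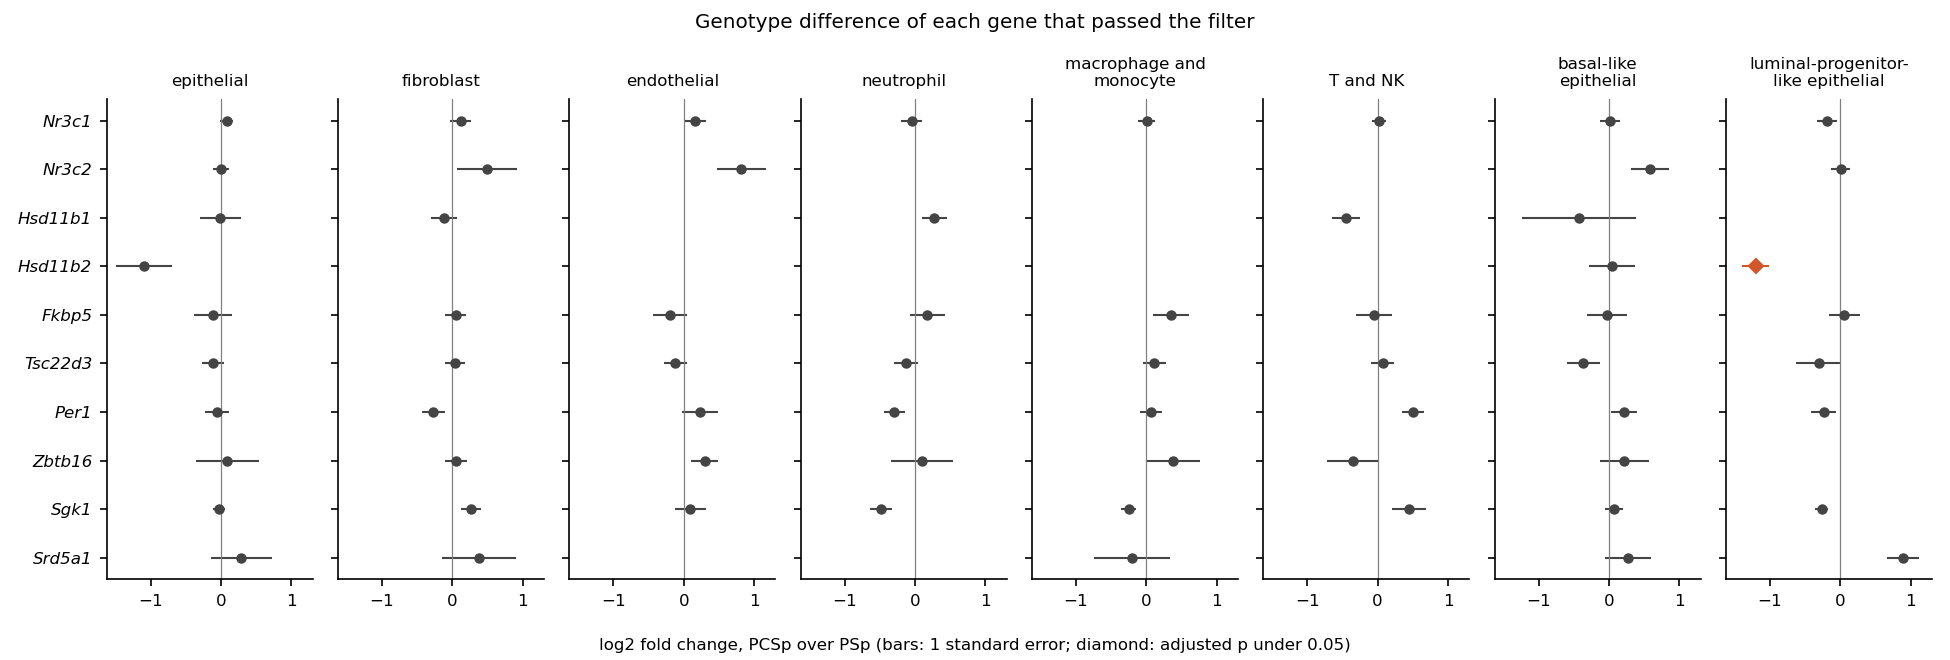
Log2 fold change of PCSp over PSp mice (x axis, bars of 1 standard error, 2 mice per group) for each of the 10 genes (rows) in 6 classes and 2 epithelial subclasses, where the gene passed the filter on low counts. Hsd11b2 in luminal progenitor cells (-1.20 ± 0.19) is the 1 difference past the threshold and is drawn as a diamond.

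Outside the epithelium 5 of 37 differences had an unadjusted p under 0.05, and none passed the adjustment in edgeR. Of all genes tested in these classes, 3.81% (fibroblasts) to 9.0% (neutrophils) had an unadjusted p under 0.05. Per1 in T and NK cells (56.8 and 65.2 against 88.7 and 90.1) gave 0.50 ± 0.16 with an adjusted p of 0.297. It was higher in PCSp tumours in both T and NK clusters, at 55.9 and 63.9 against 84.9 and 95.4 in the cytotoxic one and 59.2 and 67.7 against 97.4 and 76.3 in the other. Hsd11b1 in T and NK cells (52.5 and 56.7 against 41.5 and 41.0) gave -0.45 ± 0.20 with an adjusted p of 0.527. Groups did not overlap for 38% of all genes tested in T and NK cells, so the separation of these values is not particular to the genes.

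Sgk1 leaned lower in PCSp myeloid cells. In neutrophils (93.9 and 83.3 against 66.0 and 64.8) the difference was -0.49 ± 0.16, with an adjusted p of 0.359 in edgeR. The Ccl3-led cluster had 118 and 116 against 68.2 and 66.0, whereas the S100a9-led cluster, with 64.5 and 56.8 against 59.9 and 65.7, overlapped. Cells of the S100a9-led cluster numbered 385, 513, 598 and 1361 in the 4 mice, and those of the Ccl3-led cluster 323, 388, 419 and 486. The summed level of 12 dissociation stress genes in neutrophils was 17400 and 15003 in PSp tumours and 13185 and 12946 in PCSp tumours. The part of either in the Sgk1 values was not tested. In macrophages Sgk1 (170 and 162 against 141 and 145) gave -0.25 ± 0.11 with an adjusted p of 0.814. The C1qa-led cluster 18 overlapped at 228, 218, 214 and 242, and so did the Retnla-led cluster, where Sgk1 was lower. The Retnla-led cluster held 92 and 68 cells in PSp tumours and 202 and 256 in PCSp tumours, beside 94, 109, 144 and 168 in cluster 18. The largest macrophage cluster, number 19, also led by C1qa, held 172, 231, 300 and 263 cells at a median of 1007.5 UMIs per cell. The part of that makeup in the class value was not tested. Groups did not overlap for 38.5% of all genes tested in neutrophils and 36.6% in macrophages.

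Nr3c2 in endothelial cells (9.24 and 15.5 against 20.9 and 24.6) gave 0.82 ± 0.35, with an adjusted p of 0.730 in edgeR. The difference was 1.27 without PSp mouse 2 and 0.51 without PSp mouse 1. In the Fabp4-led cluster the values were 7.79, 10.9, 7.45 and 6.86. The Ccl21a-led cluster, where Nr3c2 was high, held 14 and 27 cells in PSp tumours and 78 and 43 in PCSp tumours, beside 141, 148, 198 and 138 in the Fabp4-led one. The part of that makeup in the class value was not tested.

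The genotype difference in epithelial cells was then set against that in each other class by the interaction of class and genotype. Of 50 tests over 5 classes 0 were called by edgeR, 5 had an unadjusted p under 0.05, which 4.51% to 6.61% of all genes had, and DESeq2 called 0 with 1 under 0.05. Some genes passed the filter on low counts here only together with the epithelial counts, having failed it in the other class alone. These were Hsd11b2 in all 5 pairs, and Srd5a1 and Nr3c2 against neutrophils and T and NK cells. So were Srd5a1 and Hsd11b1 against endothelial cells, and Nr3c2 and Hsd11b1 against macrophages. Such tests cannot tell whether a genotype difference is particular to epithelial cells. Of all genes, 0.131% were called against endothelial cells, 0.0363% against fibroblasts, 0.0638% against macrophages, 0.362% against neutrophils and 0.406% against T and NK cells. The smallest p was that of Per1 against T and NK cells, where epithelial minus T and NK was -0.57 ± 0.21 (adjusted p = 0.491). No gene of the 10 was thus shown to differ between genotypes in another way in epithelial than in other cells.

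The wider pathway was followed in epithelial cells through 8 gene lists, and no listed gene passed the edgeR threshold there, like every other gene in that class (0.0% of 16430 called). DESeq2 called 197 of the 16430. The median log2 difference of all genes was -0.01. Of 16 corticosteroid receptor chaperones and coregulators, all tested, 11 were above and 5 below 0, with 1 unadjusted p under 0.05 and a median of 0.04. Nrip1, a corepressor, had 195, 205, 242 and 261 (0.31 ± 0.09, adjusted p = 0.553), Bag1, a cochaperone, gave 0.19 ± 0.08 and the chaperone gene Hspa8 -0.26 ± 0.11. Of 26 other glucocorticoid-induced genes 25 were tested, with 13 above and 12 below 0 and a median of 0.00. Among them Cdkn1c, a cell cycle inhibitor, gave 0.32 ± 0.09 (adjusted p = 0.535), Tgm2, a transglutaminase, 0.34 ± 0.14, and Dusp1, a phosphatase that limits inflammatory kinases, -0.20 ± 0.09. The 10 inflammatory genes that glucocorticoids repress split 5 and 5 with a median of 0.01, and Il6 (0.70 ± 0.42), Ccl2 (-1.15 ± 0.72) and Cxcl1 (0.31 ± 0.26) had the smallest p. The same split, 8 and 8 with a median of -0.01, held for the 16 of 32 other steroid-converting enzymes that could be tested. The leading ones were Sult2b1, a sterol sulfotransferase (-0.32 ± 0.14), Dhrs9, a retinol and steroid dehydrogenase (0.70 ± 0.34), and Cyp7b1, an oxysterol hydroxylase (0.38 ± 0.32). The glucocorticoid-induced list split 13 and 8 in macrophages (median 0.24), with 5 unadjusted p under 0.05 (edgeR, 6.03% of all genes). In neutrophils it split 7 and 12 (-0.13), with 7 such p (9.0% of all genes). Luminal progenitor cells also gave 7 and 12 (-0.12), with 5 (10.6%). Endothelial cells gave 16 and 4 (0.14, 1 such p) and fibroblasts 10 and 14 (-0.09, 2). T and NK cells gave 9 and 6 (0.02, 1) and basal cells 10 and 13 (-0.10, 3). None was called there, and the list was not tested as a set.

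Genes of sodium transport, the classical output of mineralocorticoid action, did not move as a block. Of 6 tested, 3 were above and 3 below 0, with a median of -0.01 and 2 unadjusted p values under 0.05. The sodium channel subunit genes went in different directions: Scnn1g had 2.57, 2.54, 4.81 and 3.67 (0.71 ± 0.19, adjusted p = 0.513) and Scnn1b 17.0, 20.8, 27.8 and 23.3 (0.41 ± 0.15, 0.625), whereas Scnn1a gave -0.23 ± 0.12. Neither passed, and the separation of their PCSp from their PSp values was shared by 39.5% of all genes tested in epithelial cells. Among androgen-responsive genes that glucocorticoids also regulate, Klk1, a kallikrein, had 48.9, 51.5, 5.29 and 9.80 (-2.77 ± 0.30, adjusted p = 0.404), and it is also a leading gene of sub-cluster 19. Pbsn gave 0.74 ± 0.83 and Ndrg1 -0.04 ± 0.09.

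The clock partners of Per1 had the lowest median of the 8 lists in epithelial cells, -0.16, with 3 of 13 above and 10 below 0, where 48.5% of all genes were above 0. The list split 2 and 11 in fibroblasts (median -0.19) and 3 and 8 in neutrophils (-0.20). It split 6 and 6 in endothelial cells (-0.02), 5 and 6 in macrophages (-0.07) and 5 and 5 in T and NK cells (0.02), so the lean was not shared by all 6 classes. Per1 gave -0.06 ± 0.17 in epithelial cells, -0.27 ± 0.16 in fibroblasts and -0.29 ± 0.14 in neutrophils. In the epithelium Hlf, a clock output factor, went the other way at 4.55, 4.43, 8.69 and 6.94 (0.78 ± 0.15, adjusted p = 0.405), while Nr1d1, a repressor of the clock, gave -0.36 ± 0.16 and Ciart -0.62 ± 0.33. The labels give no time of day of collection. Relatives of the 10 genes (9 of 10 tested, 3 above and 6 below, median -0.05) were led by Fkbp8 (-0.20 ± 0.10), Pgr (-0.38 ± 0.26) and Fkbp4 (0.09 ± 0.07). Stress and immediate early genes (12 tested, 4 above and 8 below, median -0.05) were led by Hspa1a (-0.35 ± 0.13), Fos (-0.19 ± 0.12) and Hspa1b (-0.18 ± 0.16).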

How the data were processed

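The authors deposited, for each library, a matrix of UMI counts per gene and cell barcode, made from 10x Genomics 3′ libraries of whole tumours with Cell Ranger 6.1.2 on genome mm10, per the submitters' processing notes and the labels' protocols. Each deposited count is a raw whole number, and the lowest barcode had 500 UMIs. Replicate numbers follow accession order, and the labels give no batch, date or litter. Between any 2 libraries the chi-square over its degrees of freedom was 40.1 to 113, so none was a copy of another.

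Barcodes with at least 300 genes, 500 UMIs and at most 20% mitochondrial UMIs were kept (11.3% to 16.2% failed the last limit). The automatic threshold of Scrublet (scanpy 1.11.5) marked 0.0%, so the top 0.8% per 1000 barcodes were left out as doublets (342, 422, 746 and 737). Cells were clustered on 2000 variable genes, without the 10 genes and the listed genes, with 30 components, 15 neighbours, Leiden resolution 1 and no batch correction. A name needed 3 class markers found in at least 10% of cells, with a log2 fold over the median of the clusters of at least 1. No other class could have more of its markers among the 10 leading genes, though it could have some. A subclass also needed at least 1 of its own markers there. A cluster of low UMI count without any such marker stayed unnamed. RNA that another class could leave was estimated from 3 marker genes of the source class. Levels are UMI sums per mouse and class scaled to 1000000 (CPM), and the level that a count of 0 allows is that of 3 UMIs.

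Sums of classes with at least 50 cells in every mouse were tested with edgeR 4.0.16 (R 4.3.3; TMM, filterByExpr, quasi-likelihood F-test, threshold 0.05). The fits were checked on simulated data. The standard error comes from the F statistic. DESeq2 1.42.0, other scalings, filters, doublet handling and clusterings, and leaving out each mouse were the alternatives. The biological coefficient of variation was 16.2% in epithelial cells, with 2 residual and 3.03 prior degrees of freedom. Genes were placed and exons read with GENCODE M21 (GRCm38). The 10 genes, the 8 lists (receptor chaperones and coregulators, other glucocorticoid-induced genes, glucocorticoid-repressed inflammatory genes, other steroid-converting enzymes, sodium transport, clock partners, relatives, stress genes), a few androgen-responsive genes given singly, and the markers were chosen with earlier results of these data known. All 10 genes were named in every class, their tests in epithelial cells and elsewhere where the unadjusted p was under 0.05, and of each list and of the androgen-responsive genes the 3 of smallest p in epithelial cells. An allele that all mice share and 1 listed gene are not reported here. The 3 genes of highest r with each of the 10 were named among those with at least 10 CPM in a class.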

Additional observations from a re-analysis of the deposited data

How the results depend on the processing

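Mice could not be paired across genotypes, because the labels carry no replicate numbers and the mice share nothing that would pair them. The interaction fits and the fit of luminal progenitor minus basal cells did pair the classes within each mouse. The counts of 0 calls in whole classes and 0 in the interactions stayed 0 under each alternative run, DESeq2 and each mouse left out included. In the epithelial subclasses the count of 1 became 0 with a stricter cell filter, with no doublets left out, with Leiden resolution 2 and with the listed genes kept for clustering, all chosen after seeing the data. With each mouse left out it ranged from 1 to 2, the second call being Srd5a1 in luminal progenitor cells. A left-out mouse leaves 1 mouse in an arm, which is then assumed to vary like the others.

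Small epithelial differences changed sign. With each mouse left out in turn, Fkbp5 ranged from -0.43 to 0.28, Hsd11b1 from -0.16 to 0.16, Nr3c2 from -0.13 to 0.14, Per1 from -0.27 to 0.12, Sgk1 from -0.074 to 0.0068, Srd5a1 from -0.21 to 0.90, Tsc22d3 from -0.27 to 0.022 and Zbtb16 from -0.38 to 0.72. Equal cells per sub-cluster gave Nr3c1 -0.084 and Zbtb16 -0.027. With no doublets left out Hsd11b1 became 0.12 and Nr3c2 -0.015, and without the filter on low counts Nr3c2 became -1.4e-05. None of these was called, and the cause was not tested.

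Of 270 mean levels set again, 19 moved by more than the spread between mice, 17 of them with no doublets left out. Hsd11b2 in endothelial cells then rose from 1.40 to 7.51 CPM and Srd5a1 there from 1.36 to 7.10, so low levels outside the epithelium depend on how doublets are treated. Depth limits what glial, B and plasma, and smooth muscle and pericyte cells can show, where 3 UMIs stand for up to 113, 22.4 and 12.6 CPM.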

Other observations

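Among the listed genes, a few changed outside the values described so far, and each is given as a value with no explanation. Hspa1a, a heat shock gene, fell in T and NK cells of the PCSp mice, from 76.1 and 81.3 to 34.1 and 24.6 CPM (-1.43 ± 0.20, adjusted p = 0.00297, edgeR, 0.512% of all genes called). Its difference in epithelial minus T and NK cells was 1.07 ± 0.21 (adjusted p = 2.10e-04), while epithelial cells gave -0.35 ± 0.13, which did not pass. In the Krt14-led basal sub-cluster Hspa1a also fell, by 0.79 on the log2 scale (adjusted p = 0.0407, 0.168% called), in a fit added after the data were seen.

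Against neutrophils, 3 listed genes had a genotype difference that was higher in epithelial cells in the edgeR interaction (0.362% of all genes called): Cdkn1c, a cell cycle inhibitor (1.40 ± 0.25, adjusted p = 0.00118), Irs2, an insulin receptor substrate (0.96 ± 0.19, 0.00347), and Ptgs2, the inducible prostaglandin synthase (0.84 ± 0.20, 0.0301). In luminal progenitor minus basal cells the metallothionein gene Mt1 gave -0.83 ± 0.11 (adjusted p = 0.0379, 0.0441% called).

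The other listed genes past the edgeR threshold were the chemokine gene Cxcl2 in epithelial minus T and NK cells (-0.74 ± 0.19, adjusted p = 0.0358, 0.406% called), Fos in sub-cluster 4 (-0.57 ± 0.10, adjusted p = 0.0373, 0.63% called) and Tnf in sub-cluster 8 (0.93 ± 0.17, adjusted p = 0.0455, 0.143% called). Both sub-cluster fits were added after the data were seen.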
